A study of Mus musculus with 6 samples.

Results

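The cytosolic ribosomal protein genes were taken by symbol from the gene table of mouse alveolar macrophages, as the rows that begin with Rpl or Rps followed by a digit, together with Rpsa, Rplp0, Rplp1 and Rplp2. Rows named as pseudogenes (19 rows) and the S6 kinase family (10 rows) were left out. The rule found 67 of 25206 genes. By symbol alone, 40 were assigned to the large subunit and 26 to the small subunit, and both counts include paralogs, retrogenes and pseudogene models. The remaining gene is Rps19bp1, which encodes a protein that binds Rps19 and is no ribosomal protein itself. Of the 67 genes, 56 were canonical ribosomal proteins, 6 were paralogs of canonical proteins, 2 were retrogenes and 2 were pseudogene models by their RefSeq type. By the same rule the RefSeq table of mouse genes holds 95 genes, and the other 28, 21 of them canonical, were not analysed here, among them Rplp2, Rps6 and Rpl32.

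The study asked how the loss of Zcchc6 (TUT7), an enzyme that adds uridines to the ends of RNAs, affects macrophages of the lung. Total RNA was prepared from cells lavaged from the airspaces of Zcchc6-/- mice and of Zcchc6+/+ mice, and 3 arrays were hybridised for each genotype. In Zcchc6-/- mice exons 16 and 17 of Zcchc6 had been removed through EIIa-cre, a transgene with activity in the germline and most tissues, so that every cell carries the deletion and not macrophages alone. Mice of both sexes aged 8 to 16 weeks were used without infection or other treatment, and no sort of the lavaged cells is described.

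A ribosome consists of a small subunit, which reads the mRNA, and a large subunit, which joins amino acids. Each is built in the nucleolus from ribosomal RNA and many proteins, most of which are present as a single copy per ribosome. Most ribosomal protein mRNAs begin with a run of pyrimidines, the TOP motif, through which mTORC1 and Larp1 control their translation, and macrophages adjust it with growth and activation. Many introns of these genes also hold small nucleolar RNAs (snoRNAs), which guide the modification of ribosomal RNA.

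The promoter windows of these genes were examined in the RefSeq sequences (GRCm38.p6), which run 250 bases before to 50 bases after each start, and 49 of the 67 members had a window. TOP-like letters were defined as CTTTCC, as the same run with a further T (CTTTTCC), or as the run with CT before it and the last C left out (CTCTTTC). They were searched on the transcript strand from 50 bases before to 50 bases after the start. They occurred in 22 members (44.9%), against 7.73% of the 27025 genes with a window. Over the whole window the counts were 28 members (57.1%), against 21.6% of all genes. CCGGAAG, a core of ETS factor sites, lay near the start on either strand in 9 members (18.4%), against 5.98% of all genes, and 3 members held both, with no overlap between the matches. AAGATGGC, a YY1 core, occurred near the start on either strand in 3 members (6.12%), against 1.68% of all genes. TATAAA on the transcript strand lay there in 3 members (6.12%), against 4.05%. These matches describe letters only, and a window without them says nothing of the factors. The sequences below show 30 bases at or near the starts of members whose values are given further on. The TOP-like letters are in capitals where they matched, with overlapping matches joined.
Rpl35a: ttgccttcCTCTTTCCgccatcttggcgcc
Rps27: tttcgctcCTTTCCggcggtgacgacctcc
Rps26: gccggatcCTCTTTCgagtcttggctccaa
Rpl34: gccccttcCTTTTCCtcttccggggacggt
Rpl39l: tcccaggcCTTTCCggatttccggtggtcg
Rpl36al: tctgttcgtccCTTTCCtgttcggcgcgtg
Rplp0: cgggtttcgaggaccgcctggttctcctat
Rpl37a: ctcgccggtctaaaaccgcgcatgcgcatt
The Rpl35a run lies at chr16:33056474-33056503 on the plus strand, and its letters begin at base 1 from 1 of the annotated starts of this gene. From another annotated start of Rpl35a they begin at base 30. Rps27 (chr3:90213626-90213655, minus strand) and Rps26 (chr10:128626480-128626509, minus strand) have theirs at bases 2 and 6. In Rpl34 (chr3:130730326-130730355, minus strand) and Rpl39l (chr16:10170214-10170243, plus strand) the letters begin 10 and 6 bases before the annotated start of the window shown. A further annotated start of Rpl34 has no such letters within 50 bases. In Rpl36al (chr12:69184018-69184047, minus strand) they begin at base 32, and the stretch shown begins at base 21, after the annotated start. Rplp0 (chr5:115559457-115559486, plus strand) and Rpl37a (chr1:72711250-72711279, plus strand) held no such letters within 50 bases of their starts.

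The array medians lay between 4.36 and 4.45, and the arrays correlated at 0.979 to 0.993 over all genes. Zcchc6 itself was at 8.22, 7.69 and 8.13 in Zcchc6-/- arrays, against 8.72, 8.77 and 8.65 in Zcchc6+/+ arrays. Its log2 fold change was -0.70 (adjusted p = 0.774 from limma), and since 1 value stands for all probes of a gene, it also holds sequence outside the deleted exons. All 18 measured alveolar macrophage markers were above the median gene in both genotypes. Their means were lower in Zcchc6-/- for 14 and higher for 4 (22.2% higher, against 48.2% of all genes). The Zcchc6-/- arrays were all lower in 5 (background 5.15%) and all higher in 1 (background 5.03%), and 0 were called. Airway and alveolar epithelial markers had higher means in Zcchc6-/- for 11 of 14 and neutrophil markers for 7 of 12, also with 0 called, and the part of these cells in the values below was not tested. Zcchc6-/- replicate 1 stood apart, with the mean of 20 T cell markers 2.46 above its Zcchc6+/+ level, while the other Zcchc6-/- arrays were at -0.23 and -0.10 and the Zcchc6+/+ arrays between -0.33 and 0.19. Xist was low and Ddx3y high in Zcchc6-/- replicate 2 and Zcchc6+/+ replicate 1 only, so each genotype mixes the sexes. Labels do not say that replicates come from separate mice, so p-values measure the spread between these samples, and lavaged cells that are fewer or hold less RNA cannot be told apart in such bulk RNA.

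Ribosomal protein genes covered much of the range of the arrays in these macrophages. The median of their mean log2 signals was 4.96 in Zcchc6-/- and 5.01 in Zcchc6+/+, and the single means ran between 1.40 and 11.01 in Zcchc6-/- and between 1.12 and 10.94 in Zcchc6+/+. Across all 6 arrays, 9 members averaged 8 or more, a level that 10.4% of all genes reached, 34 lay between there and the median gene at 4.40, and 24 lay below the median gene, 20 of them canonical. Below the 25th percentile of the table (3.15) there were 10. Signals of different genes reflect their probes as well as their RNA, so this order is not an order of abundance. Members with no named pseudogene in the RefSeq table (22 genes, some of them not canonical) had a median of 6.11 in Zcchc6-/- and 6.10 in Zcchc6+/+. The 18 members with 5 or more had 5.06 in Zcchc6-/- and 4.89 in Zcchc6+/+. The 27 members in between had 4.85 in Zcchc6-/- and 5.01 in Zcchc6+/+. Across the 67 members Spearman's rho between the number of named pseudogenes and the signal was -0.19. How far the probes tell a gene from its copies was not tested, so values of members with copies are uncertain.

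**Figure D1:**
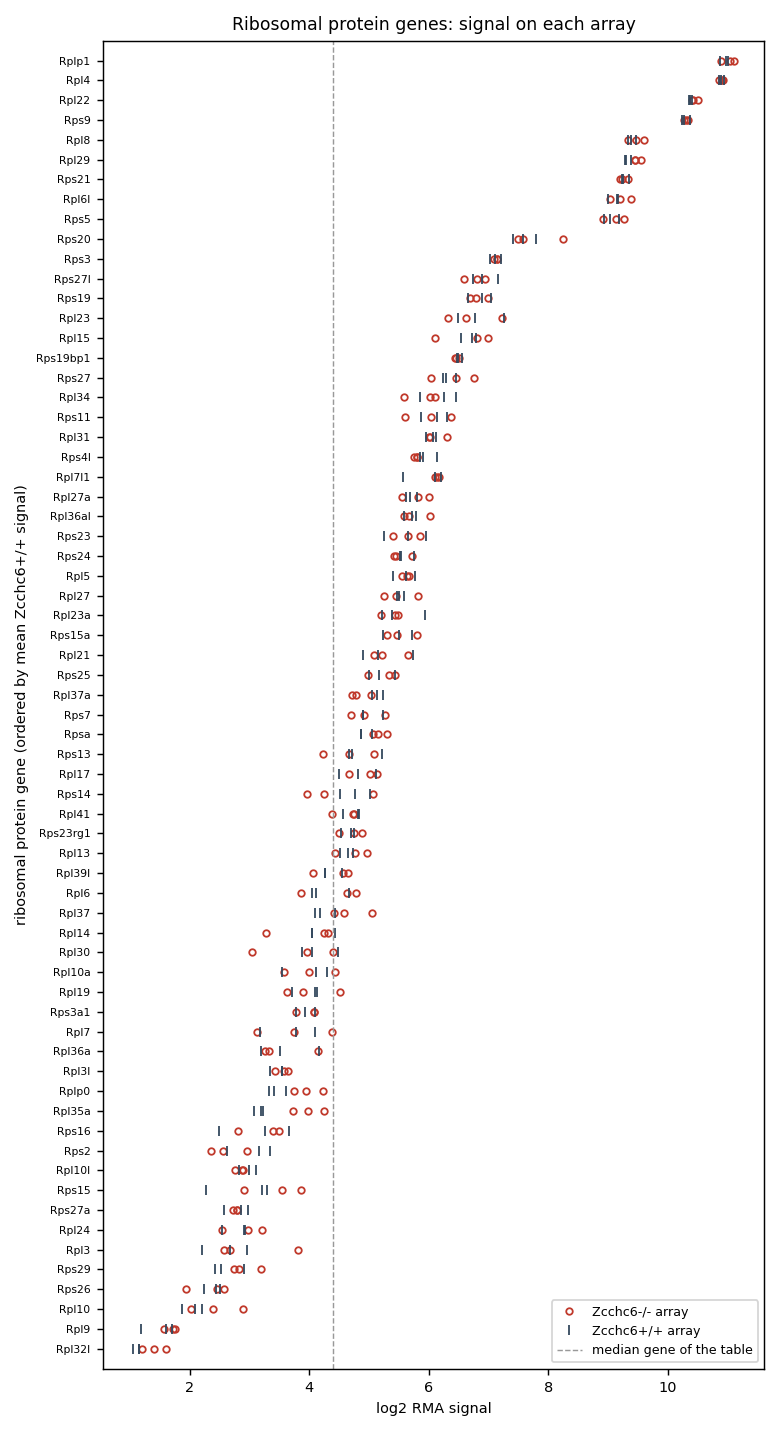
Log2 signal of 66 of the 67 ribosomal protein genes on each array, with open circles for the 3 Zcchc6-/- arrays and upright ticks for the 3 Zcchc6+/+ arrays. Genes run down the page by mean Zcchc6+/+ signal, and the dashed line is the median gene of the table at 4.40. The 9 genes at the top keep their 6 values close together, and the points of many dim genes lie far apart.

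The brightest members had small and closely bounded differences. Rplp1, an acidic protein of the stalk that calls elongation factors to the ribosome, was at 11.11, 10.89 and 11.04 in Zcchc6-/- arrays, against 10.86, 11.01 and 10.96 in Zcchc6+/+ arrays. Rpl4, which lines the exit tunnel of the large subunit, was at 10.92, 10.85 and 10.89 in Zcchc6-/- arrays, against 10.93, 10.86 and 10.88 in Zcchc6+/+ arrays. The values of Rpl4 interleaved fully, with a log2 fold change of -0.0044 and a 95% interval of -0.22 to 0.21 (limma). Rps9, a small subunit protein at the mRNA entry, was at 10.30, 10.26 and 10.33 in Zcchc6-/- arrays, against 10.27, 10.36 and 10.23 in Zcchc6+/+ arrays. Rpl22, known in mice for its need in T cell development, was at 10.40, 10.41 and 10.50 in Zcchc6-/- arrays, against 10.37, 10.40 and 10.34 in Zcchc6+/+ arrays. Its genotypes did not overlap, though only narrowly, and the log2 fold change of 0.07 had an interval of -0.15 to 0.29. Rpl8, which sits near the site of peptide bond formation, was at 9.60, 9.47 and 9.33 in Zcchc6-/- arrays, against 9.32, 9.46 and 9.38 in Zcchc6+/+ arrays. For all 9 members at 8 or more, which include a pseudogene model, the log2 fold changes lay between -0.02 and 0.16. The 95% intervals of these 9 stayed within 0.5 either way. In 2 of the 9 the Zcchc6-/- arrays were all higher (22.2% not overlapping, against 10.6% of all genes at 8 or more). The median SD of the 9 was 0.07 in both genotypes, against 0.24 in Zcchc6-/- and 0.17 in Zcchc6+/+ over all 67.

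No ribosomal protein gene passed the test between genotypes. Of the 67 genes, 0 had an adjusted p below 0.05 in limma, as did 0 of all 25206 genes (background 0%), and the smallest adjusted p of a member was 0.610. At an unadjusted p below 0.05 there were 3 members with higher and 1 with lower signal in Zcchc6-/- macrophages, against a background of 2.5% of all genes higher and 2.53% lower. The 3 Zcchc6-/- arrays were all above the 3 Zcchc6+/+ arrays in 6 members (background 5.03%) and all below them in 2 (background 5.15%). The mean was higher in Zcchc6-/- for 42 members and lower for 25 (62.7% higher, against a background of 48.2%). The median log2 fold change of the members was 0.05, against -0.0063 over all genes. Leaving out Zcchc6-/- replicate 1 gave 0.012 for the members, leaving out Zcchc6-/- replicate 3 gave 0.023, and leaving out Zcchc6+/+ replicate 1 gave 0.0063. In 52 of the 67 members the fold change was smaller than the SD between replicates, as it was in 71.6% of all genes.

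Intervals show what these arrays could have missed. The 95% interval of the log2 fold change stayed within 1 either way for 63 of the 67 members and within 0.5 for 33. Over all 25206 genes these counts were 24310 and 16167. An exact permutation test of 3 against 3 arrays cannot go below p = 0.1, so single members were judged by the fit over all genes.

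**Figure D2:**
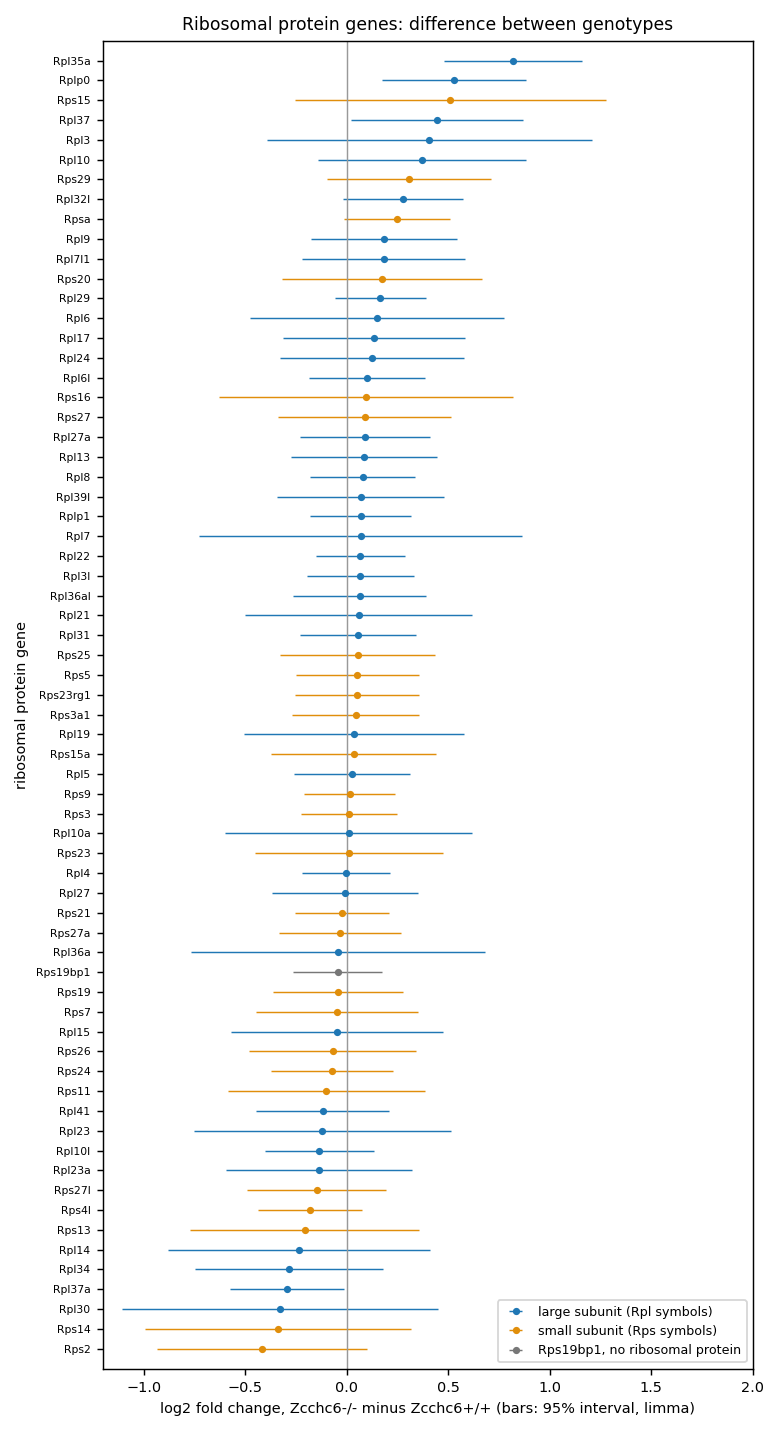
Log2 fold change of 66 of the 67 genes, Zcchc6-/- minus Zcchc6+/+, with 95% intervals from limma, coloured by subunit. Rpl35a stands at the top with 0.82 and Rps2 at the bottom with -0.42, and all intervals except those of Rpl35a, Rplp0, Rpl37 and Rpl37a cross 0.

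All 4 members with an unadjusted p below 0.05 were large subunit proteins. They were 10% of the 40 and 5.97% of the 67, against 5.03% of all genes. Rpl35a, whose human gene is mutated in some families with Diamond-Blackfan anaemia, was at 3.98, 3.73 and 4.25 in Zcchc6-/- arrays, against 3.22, 3.20 and 3.08 in Zcchc6+/+ arrays. Each Zcchc6-/- array was above every Zcchc6+/+ array, and the log2 fold change was 0.82 ± 0.15 (SE), with an adjusted p of 0.610 from limma. It lay between 0.69 and 0.95 when single arrays were left out, and all 6 values were below the median gene. Rplp0, the protein on which the P stalk is built and a common reference gene in qPCR, was at 4.23, 3.74 and 3.95 in Zcchc6-/- arrays, against 3.32, 3.61 and 3.41 in Zcchc6+/+ arrays. Its groups did not overlap either, and its log2 fold change was 0.53 ± 0.15 (SE), with an adjusted p of 0.902 from limma. The other measured stalk protein, Rplp1, had 0.07 with an interval of -0.18 to 0.32.

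Rpl37, a zinc-binding protein of the large subunit, was at 5.05, 4.42 and 4.58 in Zcchc6-/- arrays, against 4.09, 4.44 and 4.18 in Zcchc6+/+ arrays. Zcchc6-/- replicate 2 lay within the Zcchc6+/+ range, and the fold change of 0.44 fell to 0.26 when Zcchc6-/- replicate 1, the array with T cell markers, was left out. Rpl37a, a separate zinc-binding protein despite its name, went the other way. It was at 5.04, 4.78 and 4.72 in Zcchc6-/- arrays, against 5.23, 5.14 and 5.05 in Zcchc6+/+ arrays. The groups were apart by a narrow margin, with a log2 fold change of -0.29 and an adjusted p of 0.983 from limma, the same adjusted p as for Rpl37. Rpl34, a further protein of the large subunit, was at 5.58, 6.02 and 6.11 in Zcchc6-/- arrays, against 6.45, 5.86 and 6.26 in Zcchc6+/+ arrays. Its groups overlapped, and its log2 fold change was -0.28 with an interval of -0.75 to 0.18. Leaving out Zcchc6-/- replicate 1 gave -0.12, and leaving out Zcchc6+/+ replicate 2 gave -0.45.

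As a group, the 40 genes assigned by symbol to the large subunit had a median log2 fold change of 0.07, with 28 higher and 12 lower in Zcchc6-/- macrophages. The 26 assigned to the small subunit had a median of 0.011, with 14 higher and 12 lower and none at an unadjusted p below 0.05. The difference between subunits was not tested. The large subunit median was 0.019 without Zcchc6+/+ replicate 1, and the small subunit median was -0.019 without Zcchc6-/- replicate 1.

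In the small subunit, Rpsa, which also serves as a laminin receptor, was at 5.30, 5.07 and 5.15 in Zcchc6-/- arrays, against 5.04, 4.86 and 4.87 in Zcchc6+/+ arrays. The groups did not overlap, and the log2 fold change of 0.25 had an interval of -0.01 to 0.51 (limma). Rps2, which lies at the mRNA entry, was at 2.95, 2.56 and 2.36 in Zcchc6-/- arrays, against 3.34, 3.17 and 2.62 in Zcchc6+/+ arrays. It had the lowest fold change of all members, -0.42, but its groups overlapped and its interval ran from -0.93 to 0.10. The fold change was -0.27 if Zcchc6+/+ replicate 1 was left out and -0.63 if Zcchc6+/+ replicate 3 was. Rps14, whose human gene lies in the deletion of 5q- syndrome, was at 5.07, 3.97 and 4.24 in Zcchc6-/- arrays, against 5.02, 4.52 and 4.76 in Zcchc6+/+ arrays. Zcchc6-/- replicate 1 was the highest of the 6 and Zcchc6-/- replicates 2 and 3 were the lowest. Rps29, a small zinc-binding protein, was at 2.75, 2.82 and 3.19 in Zcchc6-/- arrays, against 2.42, 2.52 and 2.91 in Zcchc6+/+ arrays. Its log2 fold change was 0.31 with an interval of -0.10 to 0.71, and it was 0.17 without Zcchc6-/- replicate 3.

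Most members, like most genes, varied more between replicates than between genotypes. The fold change was smaller than the SD between replicates in 77.6% of members, against 71.6% of all genes. Rpl7, Rps15, Rps16 and Rpl36a are given because their Zcchc6+/+ SD was the largest among the members. In Rpl7, Rps16, Rpl3 and Rpl36a the same-numbered arrays ranked alike in both genotypes. Other members, among them Rps14, Rps29, Rps2 and Rpl37a, did so too, and how often this held over all genes was not counted. Rpl7, of the large subunit, was at 3.13, 3.75 and 4.38 in Zcchc6-/- arrays, against 3.18, 3.78 and 4.09 in Zcchc6+/+ arrays. Its values spanned over 0.9 in each genotype, and its log2 fold change was 0.07. Rps16, which reaches the tRNA in the P site, was at 2.81, 3.39 and 3.49 in Zcchc6-/- arrays, against 2.49, 3.25 and 3.67 in Zcchc6+/+ arrays. Rps15, near the decoding site, was at 2.91, 3.54 and 3.86 in Zcchc6-/- arrays, against 3.22, 2.27 and 3.29 in Zcchc6+/+ arrays. The widest Zcchc6+/+ range of any member was that of Rps16, 1.18, and Rps15 had a log2 fold change of 0.51 with an interval of -0.26 to 1.28, and of 0.18 without Zcchc6+/+ replicate 2. Rpl3, close to the site of peptide bond formation, was at 3.81, 2.68 and 2.57 in Zcchc6-/- arrays, against 2.96, 2.68 and 2.20 in Zcchc6+/+ arrays. Its log2 fold change of 0.41 was 0.013 without Zcchc6-/- replicate 1. The median range over 3 arrays was 0.45 in Zcchc6-/- and 0.33 in Zcchc6+/+ over all members. The SD was larger in Zcchc6-/- in 46 of the 67 members, and also in 64.5% of all genes.

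**Figure D3:**
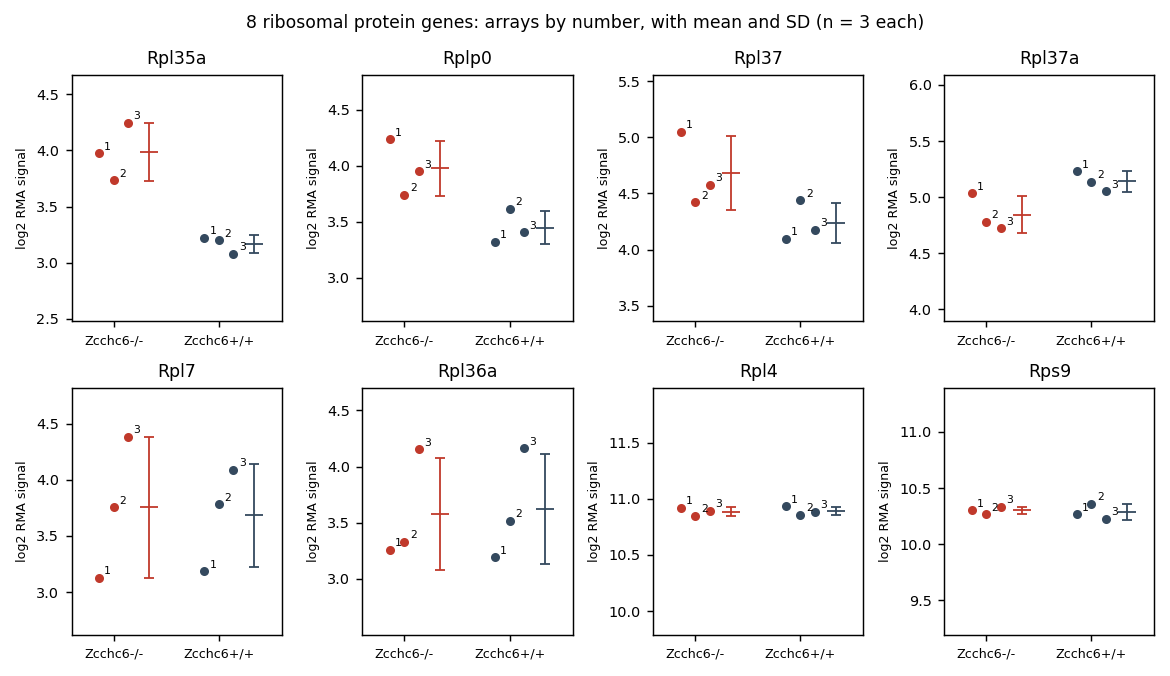
Log2 signal of 8 ribosomal protein genes, with the 3 Zcchc6-/- arrays left of the 3 Zcchc6+/+ arrays in each panel, numbered by replicate, and the mean with its SD beside them. Every panel spans 2.2 log2 units. Rpl35a, Rplp0 and Rpl37a show no overlap between genotypes, while Rpl7 and Rpl36a vary widely within each and Rpl4 and Rps9 hardly at all. Same-numbered arrays rank alike in Rpl7, Rpl36a, Rpl37a and Rpl4, but not in Rpl35a, Rplp0, Rpl37 and Rps9. How often they do so over all genes was not counted.

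X-linked members were Rpl10 and Rpl36a. Rpl10, which joins the large subunit late in the cytoplasm, was at 2.90, 2.02 and 2.38 in Zcchc6-/- arrays, against 2.21, 1.88 and 2.09 in Zcchc6+/+ arrays. Rpl36a, which lies near the exit site for tRNA, was at 3.26, 3.33 and 4.15 in Zcchc6-/- arrays, against 3.19, 3.52 and 4.16 in Zcchc6+/+ arrays. The arrays with high Ddx3y, Zcchc6-/- replicate 2 and Zcchc6+/+ replicate 1, were not set apart in either gene. Other dim members were Rps26, at the mRNA exit, with means of 2.33 in Zcchc6-/- and 2.40 in Zcchc6+/+, and Rpl9, with means of 1.68 in Zcchc6-/- and 1.50 in Zcchc6+/+.

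The paralogs, some of which are known for expression in few tissues, had log2 fold changes within 0.2 of 0. Rpl10l, known from testis, averaged 2.84 ± 0.08 in Zcchc6-/- and 2.98 ± 0.15 in Zcchc6+/+ (SD, n = 3 each). Rpl39l, also known from testis, averaged 4.43 ± 0.32 in Zcchc6-/- and 4.36 ± 0.16 in Zcchc6+/+. Rpl3l, the paralog of Rpl3 in heart and skeletal muscle, averaged 3.55 ± 0.11 in Zcchc6-/- and 3.48 ± 0.11 in Zcchc6+/+. These 3 were near or below the median gene. Rpl36al, which is used in many tissues, averaged 5.76 ± 0.23 in Zcchc6-/- and 5.69 ± 0.11 in Zcchc6+/+. Rpl7l1 averaged 6.14 ± 0.03 in Zcchc6-/- and 5.95 ± 0.34 in Zcchc6+/+, and its wider Zcchc6+/+ spread came from replicate 1 at 5.56. Rps27l, a p53 target in human cells, averaged 6.78 ± 0.18 in Zcchc6-/- and 6.93 ± 0.21 in Zcchc6+/+, and its partner Rps27 averaged 6.42 ± 0.36 in Zcchc6-/- and 6.33 ± 0.11 in Zcchc6+/+.

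Of the retrogenes and pseudogene models, Rpl32l was the dimmest member, at 1.60, 1.40 and 1.20 in Zcchc6-/- arrays, against 1.16, 1.15 and 1.06 in Zcchc6+/+ arrays. Its groups did not overlap, with an interval of -0.02 to 0.57 around a log2 fold change of 0.28, which was 0.18 without Zcchc6-/- replicate 1. Rps4l was at 5.75, 5.81 and 5.80 in Zcchc6-/- arrays, against 5.91, 6.13 and 5.86 in Zcchc6+/+ arrays. It was the other member, with Rpl37a, whose Zcchc6-/- values were all the lower ones. Rps19bp1, the binding protein, averaged 6.46 ± 0.04 in Zcchc6-/- and 6.51 ± 0.04 in Zcchc6+/+ (SD, n = 3 each). Without these and the paralogs, the 56 canonical genes had a median log2 fold change of 0.04, with 35 higher and 21 lower.

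Array by array, Zcchc6-/- replicate 1 held the highest of the 6 values in 24 of the 67 members (35.8%), against 22.6% of all genes. Zcchc6-/- replicate 2 held it in 4 members (5.97%), against 18.5% of all genes. Set against each gene's Zcchc6+/+ mean, the members' median was 0.028, -0.0098 and 0.078 in Zcchc6-/- arrays, against -0.019, 0.033 and -0.0075 in Zcchc6+/+ arrays. The median shift was thus at most 0.08 in any array. The interquartile range around the median array was widest in Zcchc6-/- replicate 1, at 0.38, as it was over all genes, at 0.27. The T cell markers of that array are given above, and their part in these values was not tested.

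The snoRNA genes inside the spans of these genes varied by array. Of 23 such genes, 21 were measured, in 15 host genes, and 17 of them were highest in Zcchc6-/- replicate 1. Snord42a, inside Rpl23a, was at 10.44, 9.40 and 9.57 in Zcchc6-/- arrays, against 9.72, 9.89 and 9.65 in Zcchc6+/+ arrays. Snora21, inside Rpl23, was at 8.98, 7.94 and 8.18 in Zcchc6-/- arrays, against 8.39, 8.32 and 8.12 in Zcchc6+/+ arrays. Both genes, picked as examples after their values were seen, were highest in that array and lowest in Zcchc6-/- replicate 2. Measured the same way, the 21 had medians of 0.31, -0.20 and -0.09 in Zcchc6-/- arrays, against -0.04, 0.08 and -0.03 in Zcchc6+/+ arrays. Their median SD was accordingly 0.34 in Zcchc6-/- and 0.13 in Zcchc6+/+.

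Between genotypes the snoRNA genes had a median log2 fold change of 0.0065, with 12 higher and 9 lower. Without Zcchc6-/- replicate 1 the median was -0.18 and 19 of 21 were lower, and without Zcchc6-/- replicate 2 it was 0.14. None passed the test, and Snord4a, inside Rpl23a, had the only unadjusted p below 0.05. It was at 5.11, 4.67 and 4.89 in Zcchc6-/- arrays, against 4.47, 4.54 and 4.53 in Zcchc6+/+ arrays, with a log2 fold change of 0.38 (adjusted p = 0.954 from limma). Its host Rpl23a had -0.14, and over the 21 pairs the host and the snoRNA gene had the same sign in 9.

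**Figure D4:**
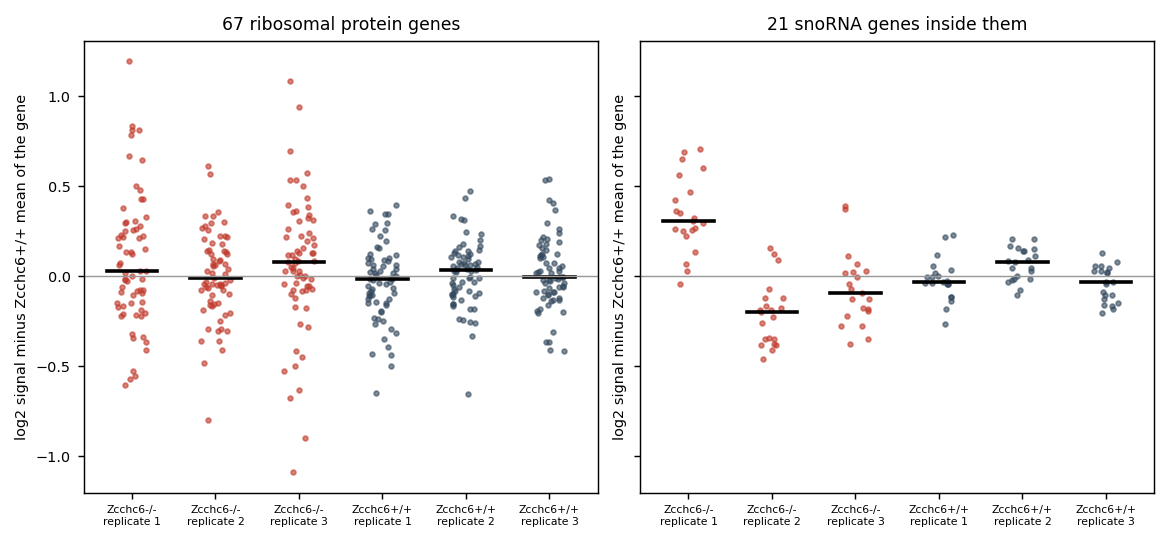
Distance of each gene from its mean over the Zcchc6+/+ arrays, in log2 units, for the 67 ribosomal protein genes on the left and the 21 snoRNA genes inside them on the right. Points are genes, black bars are medians, and the 3 Zcchc6-/- arrays stand left of the 3 Zcchc6+/+ arrays. The medians of the ribosomal protein genes stay within 0.08 of 0, while the snoRNA genes have a median of 0.31 in Zcchc6-/- replicate 1 and -0.20 in Zcchc6-/- replicate 2.

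Members with and without TOP-like letters near the start are given side by side, with no test between them. The 22 with them had a median log2 fold change of 0.04, with 15 higher and 7 lower in Zcchc6-/- macrophages, against 0.015, with 15 higher and 12 lower, for the 27 members whose window lacked them. Among the sequences printed above, those with the letters had 0.82 (Rpl35a), 0.09 (Rps27), 0.07 (Rpl39l), 0.06 (Rpl36al), -0.07 (Rps26) and -0.28 (Rpl34). Rplp0 and Rpl37a, without them, had 0.53 and -0.29.

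Genes that work around the ribosome were described from lists of known factors, and none of their members passed the test. Fau and Rack1, the measured ribosomal proteins under other symbols, had log2 fold changes of -0.12 and 0.07. Of 50 ribosome biogenesis factors, 29 were higher and 21 lower in Zcchc6-/- macrophages, with a median of 0.03 and none at an unadjusted p below 0.05. Leaving out Zcchc6-/- replicate 2 turned that median to -0.015, and leaving out Zcchc6-/- replicate 1 gave 0.086. Those with the smallest p were Grwd1, a chaperone of Rpl3 (-0.22), nucleolin, Ncl (0.17), and Nvl, an ATPase of large subunit maturation (0.13). The 16 measured genes of RNA polymerase I and its factors, which transcribe ribosomal RNA, had a median of 0.08, with 12 higher and 4 lower, and of 0.035 without Zcchc6+/+ replicate 1. Taf1b, the only one at an unadjusted p below 0.05 and part of the promoter factor SL1, was at 7.47, 7.49 and 7.44 in Zcchc6-/- arrays, against 7.19, 7.32 and 7.21 in Zcchc6+/+ arrays. Its groups did not overlap, and its log2 fold change was 0.23 (adjusted p = 0.983 from limma).

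Elongation factors and other TOP mRNAs, 17 genes, had a median log2 fold change of 0.04, with 12 higher and 5 lower and none at an unadjusted p below 0.05. With single arrays left out it lay between 0.015, without Zcchc6+/+ replicate 1, and 0.074, without Zcchc6-/- replicate 3. Eef1a1, which brings tRNAs to the ribosome, had 0.43 with an interval of -0.19 to 1.04, and Eef1g had 0.20. The 17 regulators of mTORC1 and TOP mRNAs had a median of 0.0027, with 9 higher and 8 lower, and between 0.0012 and 0.029 with single arrays left out. Tsc1, an inhibitor of mTORC1, had 0.22, Eif4ebp2 had 0.17 and Rps6kb1, the S6 kinase, had 0.11, none at an unadjusted p below 0.05. Among 12 factors that rescue or clear stalled ribosomes, 8 were higher and 4 lower, with a median of 0.06 (0.037 without Zcchc6+/+ replicate 2). An unadjusted p below 0.05 was seen for 2, Ankzf1 and Pelo (16.7%, against 5.03% of all genes). The genotypes did not overlap in 3, namely these 2 and Map3k20 (25%, against 10.2% of all genes). Pelo, which opens stalled ribosomes with Hbs1l, was at 5.73, 5.68 and 5.82 in Zcchc6-/- arrays, against 6.08, 6.16 and 6.05 in Zcchc6+/+ arrays. All Zcchc6-/- values were the lower ones, with a log2 fold change of -0.35 (adjusted p = 0.902 from limma). Ankzf1, which releases stalled peptide chains, had 0.24 (adjusted p = 0.983).

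Beside these, the 15 markers of dividing cells had higher means in Zcchc6-/- macrophages in all 15 cases, by 0.50 at the median on the log2 scale, against a background of 48.2% of all genes with a higher mean. Of these markers 0 were called, as were 0 of all genes, and 11 had an unadjusted p below 0.05, against 5.03% of all genes. The markers had 0.48 without Zcchc6-/- replicate 1, where that of the ribosomal protein genes was 0.012. Their part in the values above was not tested.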

How the data were processed

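RNA had been hybridised to whole-transcript Affymetrix arrays (Mouse Gene ST), and the authors deposited log2 RMA values by Entrez Gene number (affy 1.36.1 in R 2.15.1, per the submitters' processing notes, with a Brainarray probe mapping). RMA corrects background, normalizes the arrays to 1 distribution and gives 1 value per gene, with no probe detail or detection call. A genome build for that mapping was not named. Symbols came from the platform annotation and RefSeq (GRCm38.p6) for 23740 of 25206 genes. Promoter sequences are RefSeq's.

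Samples were grouped by labelled genotype. The limma package (3.58.1, R 4.3.3) was run on all genes with lmFit and eBayes and no filter, as Zcchc6-/- minus Zcchc6+/+. Calls required a Benjamini-Hochberg adjusted p below 0.05 over the whole table. The code was tested on simulated data. The number of arrays, 3 per genotype, limits the precision. Members and lists were chosen with earlier results of these data known. Members named are the 6 smallest p in each direction, the 5 brightest and 5 dimmest in Zcchc6+/+, the 4 with the largest Zcchc6+/+ SD, paralogs with their partners, X-linked members, the P stalk and Rps19bp1, with up to 3 smallest p per list. Rpl23a and snoRNA genes are named outside this rule, and 1 member it takes is not reported here singly. SnoRNA genes were matched to hosts by span, without a check of strand. Alternatives were other normalizations, filters, variance models, array weights, a replicate block, Xist as a covariate and each array left out.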

Additional observations from a re-analysis of the deposited data

How the results depend on the processing

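No ribosomal protein gene was called under any of the 15 alternatives, nor among the canonical genes alone, a setting added after seeing the data. Over all genes, 0 were called in each except without Zcchc6-/- replicate 1, where 1 was, so leaving out single arrays gave 0 to 1. The members' median log2 fold change stayed above 0, from 0.0063 to 0.071 with single arrays left out and from 0.025 to 0.076 otherwise. The large subunit median was 0.13 with array weights and 0.019 to 0.10 with single arrays left out, and the small subunit median was then -0.019 to 0.0017. Among the 33 members named by the rule, 22 kept their direction throughout and 11 changed it in some setting. Array weights gave 0.26 for Rpl36a, -0.017 for Rpl36al and -0.089 for Rps27. Rpl4 was at 0.025 after a further quantile normalization and 0.012 after centring of array medians. With single arrays left out, the ranges were -0.33 to 0.23 for Rpl36a, -0.067 to 0.15 for Rpl36al, -0.042 to 0.25 for Rpl39l, -0.00039 to 0.13 for Rpl3l and -0.021 to 0.016 for Rpl4. They were -0.24 to 0.38 for Rpl7, -0.015 to 0.31 for Rpl7l1, -0.23 to 0.36 for Rps16, -0.19 to 0.12 for Rps26, -0.082 to 0.28 for Rps27 and -0.014 to 0.053 for Rps9. The cause of these changes was not tested. Rpl35a had an adjusted p between 0.299 and 1.00 over its alternatives.

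Same-numbered arrays correlated at 0.09, -0.23 and 0.05 in their deviations from the group means over all genes, so the numbers were not taken to pair the samples. With the replicate number as a block 0 genes were called, 0 of them members. At an unadjusted p below 0.05 in that fit, 4 members were higher and 2 lower (8.96%, against 4.23% of all genes). Over the members alone the same-numbered correlations were 0.44, 0.05 and 0.42, and each was the highest of its Zcchc6-/- array. Over the canonical members this did not hold for Zcchc6-/- replicate 2. There it correlated at 0.032 with its own number and at 0.045 with Zcchc6+/+ replicate 3. The replicate term had an unadjusted p below 0.05 in 15 of 67 members (22.4%), against 3.47% of all genes, and 0 passed after adjustment. Among members below the median gene it was 10 of 24 (41.7%), against 4.93% of all genes below it. Rpl7, Rpl36a, Rps16 and Rpl3 were among these, each with an adjusted p of 1.00 for the term (limma), and no label says what a number shares. The number of arrays and the dim signal of 24 members limit what can be seen.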
